A study of Mus musculus with 10 samples.

Results

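The polyamine pathway was followed through 10 genes of the mouse uterus. *Odc1*, *Azin1* and *Oaz1* set ornithine decarboxylase activity, *Amd1*, *Srm* and *Sms* build spermidine and spermine, and *Sat1*, *Smox*, *Paox* and *Aoc1* break polyamines down. The genes were chosen by symbol for their place in the pathway, with results of the genotype comparison already known, so their counts and medians describe the pathway and are no independent test of it. All 10 symbols were found among the 45706 genes of the count table, and all 10 were among the 25146 tested genes, those averaging 1 count or more per uterus. The uteri came from mature adult females of a mixed C57BL/6, 129S6/SvEvTac, 129P2/OlaHsd and 129S1/SvImJ background on gestation day (GD) 3.5, after mating with wildtype males. Controls were 5 *Arid1a f/f* mice, which carry both floxed *Arid1a* alleles and no Cre. The other 5 were *Ltf iCre/+ Arid1a f/f* mice, called knockout below, in which Cre expressed from 1 *Ltf* (lactoferrin) allele removes *Arid1a*, a subunit of the SWI/SNF chromatin remodeling complex, mainly from the endometrial epithelium. *Ltf* is also a granule protein gene of neutrophils, and RNA came from pieces of whole uterus, so the libraries hold every cell type of the organ.

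Polyamines are small positively charged molecules that bind RNA and DNA and are needed for cell growth and translation. Ornithine decarboxylase makes putrescine from ornithine, and 2 synthases add aminopropyl groups taken from decarboxylated S-adenosylmethionine to give spermidine and then spermine. Acetylation by SAT1 and oxidation by PAOX turn them back, SMOX oxidizes spermine directly, and AOC1 (diamine oxidase) removes putrescine and histamine. In rodents, uterine ornithine decarboxylase is known to rise around implantation and decidualization.

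Sequencing gave between 59296537 and 72702411 counts per uterus. Values of a gene are in CPM (counts relative to the TMM-normalized library size), and levels of different genes are compared in TPM, which also divides by exon length. *Arid1a* itself stood at 213 ± 22.9 CPM in controls and 185 ± 15.9 CPM in knockout uteri (SD, n = 5 each). Its log2 fold change, -0.20, did not pass the threshold (edgeR adjusted p = 0.201). The tissue also holds stroma, muscle, vessels and immune cells, and their part in this value was not tested. *Ltf* rose from 4.75 CPM to 713 CPM (adjusted p = 0.00920), with knockout replicate 5 at 2831 CPM. Along the first principal component of the 500 most variable genes, knockout replicates 1 and 5 lay at 49.0 and 65.6, while the other 3 lay between 9.36 and 20.7 and controls between -38.5 and -15.5. For that reason the counts of genes past the threshold are also given without these 2 uteri.

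Several lists of cell type markers differed between genotypes. The counts below are of markers past the threshold. Over all tested genes 5.19% were higher and 4.51% lower, and 5.00% and 4.41% without knockout replicates 1 and 5. Summed epithelial markers ran from 902 to 1194 CPM in controls and from 1295 to 2768 CPM in knockout uteri, highest in replicate 1, and 7 of 11 rose (7 without replicates 1 and 5). All 6 endothelial markers fell, also without these uteri, with sums of 746 to 1041 CPM against 340 to 510 CPM. Gland markers summed to 97.8 to 148 CPM against 34.2 to 55.9 CPM. All 8 of them had a negative value, beside 11894 of the 25146 tested genes. Past the threshold 1 of them fell, or 6 without replicates 1 and 5. Stromal sums overlapped (12312 to 17565 CPM against 10424 to 15623 CPM) and 2 of 9 fell in either fit. Neutrophil markers summed to 855 CPM in knockout replicate 5. The other knockout uteri, at 13.1 to 23.6 CPM, were within the control range of 6.10 to 24.7 CPM. None of the 9 macrophage markers passed (177 to 362 CPM against 305 to 746 CPM). The part of these differences in the results below was not tested, and in whole tissue a change in the number of cells of a type cannot be told apart from a change in RNA per cell.

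In the comparison of genotypes, 2 of the 10 genes passed an adjusted p of 0.05, *Odc1* and *Paox*, and both rose. Over all tested genes 9.70% passed, 5.19% higher and 4.51% lower. The values of these same 2 genes did not overlap between genotypes, beside 10.7% of all genes (5.53% higher, 5.16% lower). The median log2 fold change of the 10 genes was 0.31, beside 0.026 over all tested genes. A positive value was found in 8 of the 10, beside 13252 of the 25146 tested genes. Without knockout replicates 1 and 5, 6 of the 10 passed, 5 of them higher (*Odc1*, *Oaz1*, *Amd1*, *Srm* and *Paox*) and *Smox* lower, beside 9.41% of all genes (5.00% higher, 4.41% lower). With only replicate 5 left out these same 6 passed, beside 9.15%. The number was 1 (*Paox*) when control replicate 2, 3 or 5 was left out, beside 4.79%, 4.96% and 6.51% of all genes. DESeq2 called 4, *Odc1*, *Sat1*, *Paox* and *Aoc1*, beside 16.3%.

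**Figure D1:**
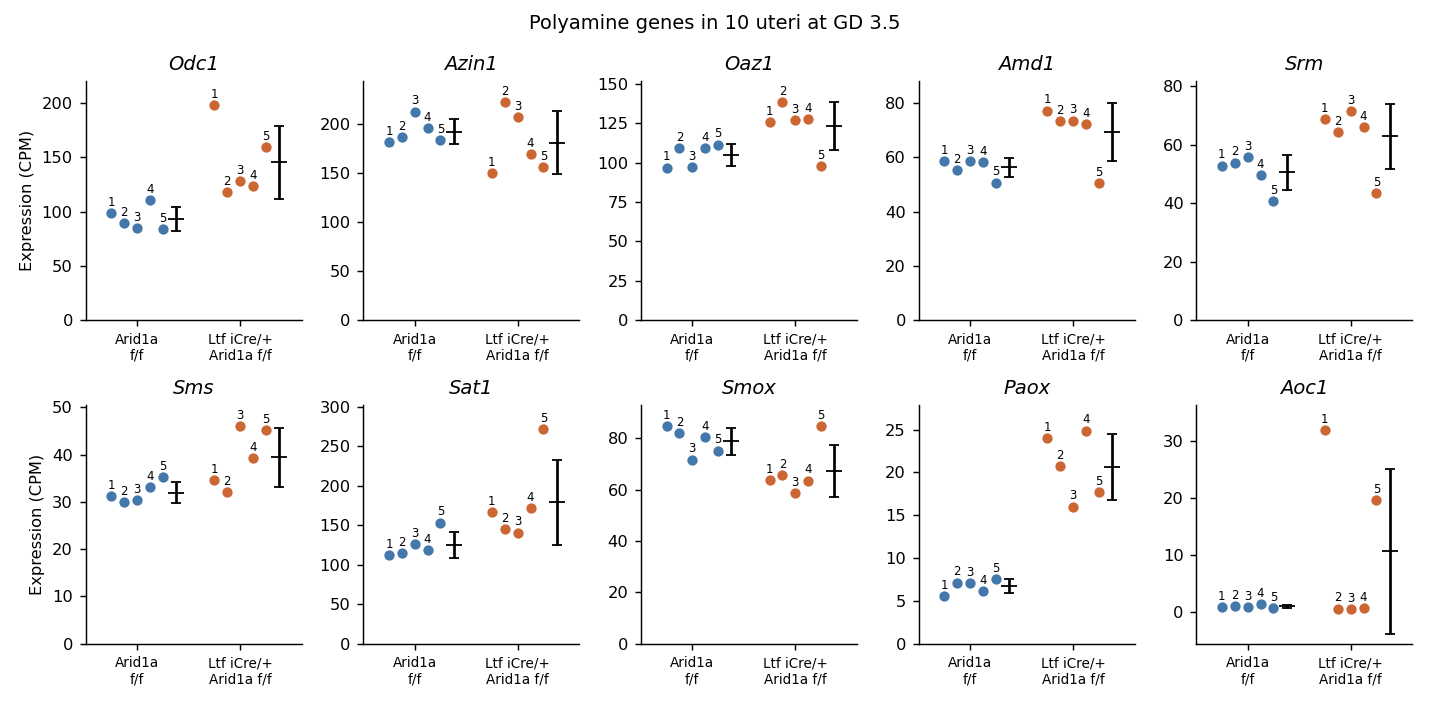
Expression in CPM of the 10 polyamine genes in each uterus, on linear axes, with controls in blue and *Ltf iCre/+ Arid1a f/f* (knockout) uteri in orange. Digits give the replicate and black bars the mean and SD of 5 uteri; *Odc1* and *Paox* show no overlap between genotypes, and replicate 5 lies apart from the other 4 knockout uteri for *Amd1*, *Srm*, *Sat1* and *Smox*.

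Stretches just before RefSeq start sites are shown for 3 genes, the 2 that rose and the gene whose level differed most among knockout uteri. They are from the RefSeq promoter windows of GRCm38.p6, plus strand, cut so that no annotated exon base of the gene is included. The *Odc1* stretch ends just before the first annotated base of the gene. Those of *Paox* and *Aoc1* lie inside the annotated gene spans, which begin at chr7:140115799 and chr6:48872896. Capitals mark GGGCGG on either strand, the GC box letters. *Odc1* at chr12:17544623-17544793, *Paox* at chr7:140125407-140125656 and *Aoc1* at chr6:48904736-48904985 read as follows.
Odc1: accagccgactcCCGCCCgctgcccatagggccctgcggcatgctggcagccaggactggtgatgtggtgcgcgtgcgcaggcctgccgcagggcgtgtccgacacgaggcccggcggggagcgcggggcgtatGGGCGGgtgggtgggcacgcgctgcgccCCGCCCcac
Paox: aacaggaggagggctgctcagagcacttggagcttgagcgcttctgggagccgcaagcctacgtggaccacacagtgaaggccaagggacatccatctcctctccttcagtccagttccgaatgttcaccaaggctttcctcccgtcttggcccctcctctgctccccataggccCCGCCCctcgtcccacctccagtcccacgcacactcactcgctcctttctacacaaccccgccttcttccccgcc
Aoc1: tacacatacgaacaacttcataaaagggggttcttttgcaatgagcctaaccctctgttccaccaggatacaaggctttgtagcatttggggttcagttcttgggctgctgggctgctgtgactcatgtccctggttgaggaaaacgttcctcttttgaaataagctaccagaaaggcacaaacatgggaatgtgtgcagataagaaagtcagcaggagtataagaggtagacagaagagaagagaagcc

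In its whole window of 300 bases (250 before the start site and 50 from it) *Odc1* held GGGCGG at 4 places and TGACG, the core of a cAMP response element, at 1. Both *Paox* windows, whose start sites lie close together, held GGGCGG at the same 3 places, 2 of which share a base. *Aoc1* held none in its 2 windows, of which the second had TGACG once after the start site. Windows were found for 8 of the 10 genes, 11 windows in all, and GGGCGG stood in 7 of these 11, while 35.7% of all 32851 mouse windows hold it. The E-box CACGTG, which MYC proteins bind, was in 7.15% of all windows and among these genes in 1 window of *Sms*. TATAAA stood in 1 of the 11 windows, that of *Oaz1* (13.6% of all windows), CCAAT in 2 (37.4%) and TGACG in 4 (20.8%). All motifs were searched on both strands, and matches are letters in a window, not shown binding.

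*Odc1* (ENSMUSG00000011179, chr12:17544794-17551505, plus strand), which encodes the first enzyme of the pathway, was expressed at 98.8, 89.6, 84.9, 110 and 83.8 CPM in control replicates 1 to 5. In knockout replicates 1 to 5 it stood at 198, 118, 128, 123 and 159 CPM. Every knockout uterus was above every control, with replicates 1 and 5 highest. The means were 93.5 ± 11.1 and 145 ± 33.7 CPM (SD, n = 5 each), a 1.55-fold ratio, and the log2 fold change was 0.64 ± 0.15 (SE, adjusted p = 0.0216). Without knockout replicates 1 and 5 it was 0.40 (adjusted p = 0.0298), so the size but not the call depended on these uteri. Leaving out control replicate 2, 3 or 5 gave adjusted p-values of 0.0590, 0.0611 and 0.0538.

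*Oaz1*, whose antizyme protein binds ornithine decarboxylase and sends it to the proteasome, stood at 97.0, 109, 97.4, 109 and 112 CPM in controls. Its knockout values were 126, 139, 127, 128 and 98.0 CPM. Replicates 1 to 4 were above all controls and replicate 5 was within their range. The log2 fold change was 0.23 ± 0.10 (SE, adjusted p = 0.145), and 0.31 without replicate 5 (adjusted p = 0.0315). The log2 ratio of *Odc1* to *Oaz1* counts ran from -0.41 to 0.027 in controls. In knockout uteri it was 0.66, -0.23, 0.0055, -0.051 and 0.70, so that replicates 1 and 5 lay above all controls and the other 3 within the control range. The mean difference was 0.39, and 0.079 without these 2 uteri.

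*Azin1*, an enzyme-dead relative of ornithine decarboxylase that ties up antizyme, was at 181, 187, 213, 197 and 184 CPM in controls and at 150, 223, 207, 169 and 156 CPM in knockout uteri. The genotypes overlapped, with 3 knockout uteri below and 1 above all controls (log2 fold change -0.087 ± 0.12 SE, adjusted p = 0.699). Without replicates 1 and 5 the sign turned (0.054). An antisense gene, *Gm49077*, covers 5.72% of the *Azin1* exon bases, and whether the counting used strand is not given in the sources used here. Reads of the 2 genes therefore cannot be fully told apart.

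The 3 genes that build spermidine and spermine were higher in most knockout uteri without passing the threshold. *Amd1* encodes S-adenosylmethionine decarboxylase, which supplies the aminopropyl donor. It was at 58.5, 55.2, 58.7, 58.3 and 50.6 CPM in controls and at 77.2, 73.3, 73.6, 72.3 and 50.4 CPM in knockout uteri. The first 4 knockout uteri were above every control and replicate 5 was just below the lowest control. The log2 fold change was 0.30 ± 0.11 (SE, adjusted p = 0.108), and without replicate 5 it was 0.40 (adjusted p = 0.00836).

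*Srm* is the spermidine synthase gene. Controls stood at 52.8, 53.8, 55.8, 49.6 and 40.7 CPM, and knockout uteri at 68.8, 64.4, 71.5, 65.9 and 43.3 CPM. Replicate 5 was the only knockout uterus within the control range of *Srm* (log2 fold change 0.31 ± 0.14 SE, adjusted p = 0.169; without it 0.42, adjusted p = 0.0232). *Sms*, the spermine synthase gene, was at 31.2, 29.9, 30.4, 33.2 and 35.3 CPM in controls and at 34.6, 32.0, 46.0, 39.4 and 45.2 CPM in knockout uteri. For *Sms* it was replicates 3, 4 and 5 that exceeded all controls (0.30 ± 0.11 SE, adjusted p = 0.111). The log2 ratio of *Srm* to *Sms* counts accordingly fell between 0.63 and 1.01 in knockout replicates 1 to 4 but was -0.061 in replicate 5, against 0.20 to 0.88 in controls, and the mean difference between genotypes was 0.010.

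*Sat1* encodes the acetyltransferase that starts polyamine catabolism. Controls were at 113, 114, 126, 119 and 154 CPM. Values in knockout uteri were 166, 145, 141, 171 and 272 CPM. Replicates 1, 4 and 5 were above all controls, and replicates 2 and 3 were below the highest control. The log2 fold change was 0.52 ± 0.17 (SE, edgeR adjusted p = 0.0835). It was 0.32 without replicate 5 (adjusted p = 0.0947) and passed the threshold in DESeq2 (adjusted p = 0.0452).

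*Paox* (ENSMUSG00000025464, chr7:140115799-140137224, plus strand), the gene of the peroxisomal oxidase that converts acetylated spermine and spermidine back, had the larger of the 2 called changes. Control replicates 1 to 5 were at 5.55, 7.15, 7.11, 6.15 and 7.51 CPM. The knockout values were 24.0, 20.8, 16.0, 24.9 and 17.8 CPM, so the lowest of them was well above the highest control. Means were 6.69 ± 0.813 and 20.7 ± 3.84 CPM (SD, n = 5 each), a 3.09-fold ratio, with a log2 fold change of 1.63 ± 0.15 (SE, adjusted p = 0.000426). Its value lay between 1.55 and 1.71 whichever single uterus was left out, always past the threshold, and was 1.62 without replicates 1 and 5. The highest value was that of replicate 4, not of a uterus that stood apart.

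*Echs1*, a mitochondrial enzyme gene on the opposite strand, overlaps 2.89% of the *Paox* exon bases (142 bases) and was at 91.8 ± 13.9 and 113 ± 15.0 CPM (log2 fold change 0.30, adjusted p = 0.142). As for *Azin1*, it is not given whether the counting used strand, so reads on the shared bases cannot be fully told apart. The summed epithelial markers were 1.70-fold higher in knockout uteri, beside 3.09-fold for *Paox*, and the part of that difference in the *Paox* values was not tested. The 3 genes whose profile over the 10 uteri was nearest to that of *Paox*, by root mean square distance of z-scores among 14591 genes averaging 100 counts or more, were *Ceacam19* (distance 0.219), *Tmem54* (0.232) and *Cnksr1* (0.236). *Ceacam19* was at 0.0576 CPM (3 to 7 counts per uterus) in controls and 4.05 CPM in knockout uteri, *Tmem54* at 1.00 and 14.4 CPM, and *Cnksr1* at 7.05 and 11.8 CPM. *Ceacam19* and *Tmem54* had at most 7 and 88 counts in a control, so they met the 100-count average only through the knockout uteri. The z-scores span both genotypes, so a gene with a similar genotype step lies near *Paox*, and the nearness is no separate result.

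*Smox*, the spermine oxidase gene, leaned the other way. It was at 84.6, 82.1, 71.6, 80.3 and 75.2 CPM in controls and at 63.6, 65.7, 58.5, 63.5 and 84.7 CPM in knockout uteri. Replicates 1 to 4 lay below all controls and replicate 5 above all of them. The log2 fold change of -0.23 ± 0.10 (SE) did not pass (adjusted p = 0.177), and it was -0.33 without replicate 5 (adjusted p = 0.0258).

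*Aoc1* (ENSMUSG00000029811, chr6:48872896-48909188, plus strand), the diamine oxidase gene, split the knockout uteri. In controls it was at 0.769, 0.962, 0.846, 1.36 and 0.675 CPM. In knockout replicates 1 and 5 it reached 31.8 and 19.5 CPM, while replicates 2, 3 and 4 were at 0.558, 0.458 and 0.654 CPM, below every control. The fitted log2 fold change was 3.52 ± 1.14 (SE, adjusted p = 0.0744 in edgeR and 0.0116 in DESeq2). Without these 2 uteri it turned to -0.73 (adjusted p = 0.160). The 2 uteri also had the highest summed epithelial markers (2768 and 1920 CPM), and the part of that difference in the *Aoc1* values was not tested.

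**Figure D2:**
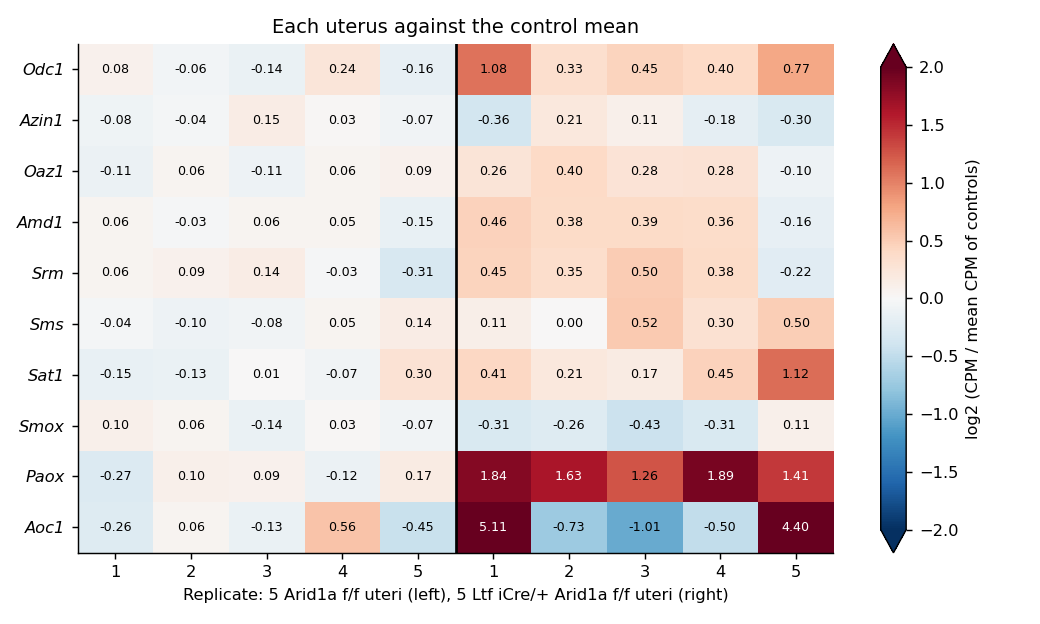
Log2 ratio of each uterus to the mean CPM of the 5 controls for the 10 polyamine genes, controls left and knockout uteri right, with colours held at 2 in either direction. *Paox* is between 1.26 and 1.89 in all 5 knockout uteri, *Aoc1* is at 5.11 and 4.40 in replicates 1 and 5 and between -1.01 and -0.50 in the other 3, and *Amd1*, *Srm* and *Oaz1* are negative only in replicate 5 among knockout uteri.

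**Figure D3:**
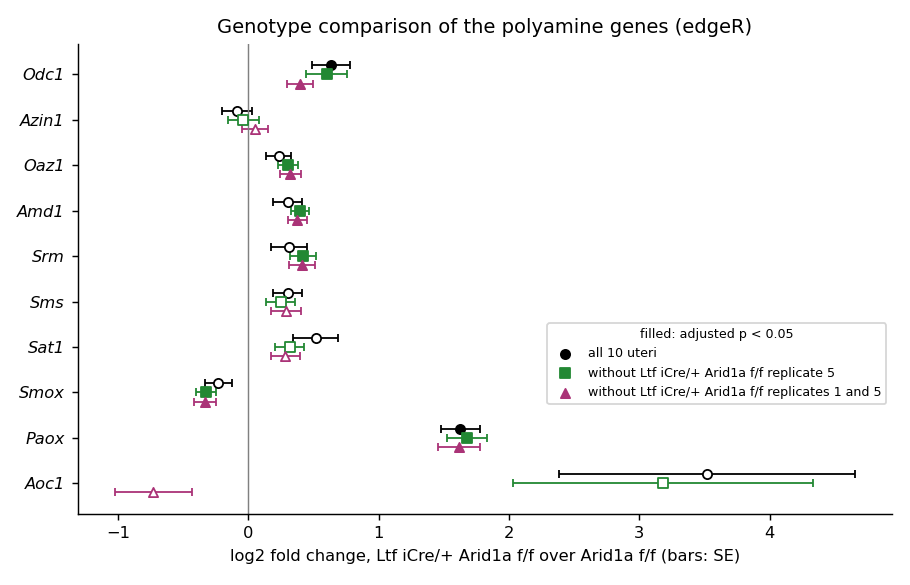
Log2 fold change with SE of each polyamine gene in edgeR, with all 10 uteri (black), without knockout replicate 5 (green) and without replicates 1 and 5 (purple); filled symbols passed an adjusted p of 0.05. *Odc1* and *Paox* are filled in all 3, *Oaz1*, *Amd1*, *Srm* and *Smox* in the 2 fits on fewer uteri, and *Aoc1* changes sign.

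Only per length can the genes be ranked. In controls *Sat1* (161 ± 19.4 TPM) and *Oaz1* (146 ± 6.46 TPM) led with overlapping ranges, and *Oaz1* exceeded *Sat1* in control replicate 2, followed by *Srm* (113 ± 15.2 TPM), *Azin1* (110 ± 8.89 TPM) and *Odc1* (98.1 ± 12.2 TPM), each overlapping its neighbour in this order. *Smox* (72.3 ± 5.28 TPM), *Amd1* (56.8 ± 4.67 TPM), *Sms* (19.0 ± 1.11 TPM), *Paox* (4.87 ± 0.533 TPM) and *Aoc1* (1.01 ± 0.289 TPM) followed without overlap. The acetyltransferase of the breakdown arm was thus abundant, while the oxidase that acts on its products was among the lowest. In knockout uteri *Odc1* ranked after *Sat1* and *Oaz1* at 146 ± 33.2 TPM, and *Paox* was at 14.4 ± 2.51 TPM, above *Aoc1* in replicates 2, 3 and 4 and below it in replicates 1 and 5. Scaled by the longest transcript in place of all exons, *Odc1* was already second in controls (117 TPM), so its rank depends on the length used. The 10 genes together took 762 to 802 TPM in controls and 889 to 1003 TPM in knockout uteri, and these ranges did not overlap. This sum does not show a rise of every gene. The largest rises in mean TPM were those of *Sat1* and *Odc1*, while the means of *Azin1* and *Smox* were lower in knockout uteri. The genes were chosen with results known, and how often sums over other sets of genes separate the genotypes was not tested.

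**Figure D4:**
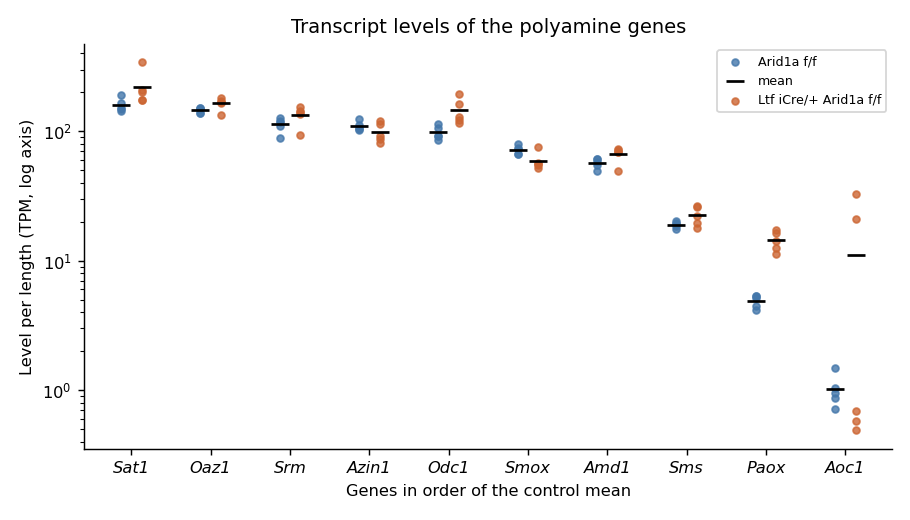
TPM of the 10 polyamine genes on a log axis, ordered by control mean, with 1 point per uterus (controls blue, knockout orange) and a black dash for each mean. Levels span from 161 TPM for *Sat1* to 1.01 TPM for *Aoc1* in controls, and only for *Odc1* and *Paox* do all knockout points lie above all control points.

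Copies of some of these genes can share reads with them. *Amd2* (1.17 and 0.879 CPM), *Oaz1-ps* (2.72 and 3.33 CPM) and *Sms-ps* (1.45 and 2.02 CPM in controls and knockout uteri) carried few reads beside *Amd1*, *Oaz1* and *Sms*. Reads that map to a gene and its copy alike may be missing from both, so the levels of these 3 genes are less certain.

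Around the core pathway, 73 genes in 7 lists were examined, of which 70 were tested. Of these, 7 rose and 3 fell (14.3%, beside 9.70% of all tested genes), and the other 60 did not pass. The count was 3 without control replicate 2, 4 or 5, beside 4.79%, 5.63% and 6.51% of all genes. It was 5 without control replicate 3 (beside 4.96%) and 6 without knockout replicate 1 (beside 7.76%). It was 10 without knockout replicates 1 and 5 (beside 9.41%), namely 1 for arginine and ornithine supply, 3 for the methionine list, 3 of 16 tested for transport, 2 for downstream breakdown, 1 for the MYC network and 0 for the other lists. In DESeq2 it was 12 (beside 16.3%). The median log2 fold change of the 70 was 0.14, beside 0.026 over all tested genes.

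None of the 5 tested paralogues passed. *Oaz2*, a second antizyme gene, was at 105, 115, 105, 101 and 100 CPM in controls and 82.0, 104, 81.3, 73.7 and 70.1 CPM in knockout uteri, with 4 of 5 below all controls (log2 fold change -0.36 ± 0.10 SE, adjusted p = 0.0516). DESeq2 gave 0.0200 for it, and the edgeR fit after the filterByExpr filter 0.0365. Without knockout replicate 2 edgeR gave 0.00769. Its value and that of *Oaz1* had opposite signs, and with all 10 uteri and the filter used throughout neither passed in edgeR.

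Of 12 tested genes for arginine and ornithine supply, *Arg1* rose, beside 5.19% of all tested genes. Arginase 1 makes ornithine from arginine, and is abundant in some myeloid cells. *Arg1* was between 0.877 and 1.42 CPM in controls, and at 6.76, 1.67, 2.57, 3.37 and 76.7 CPM in knockout uteri. All 5 were above all controls, yet 1 uterus set the size, as the log2 fold change was 3.96 ± 1.03 (SE, adjusted p = 0.0348) and 1.62 without replicate 5 (adjusted p = 0.0195). Leaving out any single control ended the call (adjusted p = 0.0716 to 0.0871). That uterus also had the neutrophil sum of 855 CPM, and the part of those cells was not tested. *Arg2* (15.0 and 13.2 CPM, adjusted p = 0.687) and *Oat*, the ornithine aminotransferase gene (211 and 231 CPM, adjusted p = 0.650), did not pass.

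The methionine cycle and salvage list had 3 of 11 genes past the threshold, all higher, beside 5.19% of all genes. Without knockout replicates 1 and 5 the number was also 3, with *Mtr*, the methionine synthase gene, in place of *Ahcy* (0.73, adjusted p = 0.0669). *Ahcy*, which clears S-adenosylhomocysteine, went from 16.2 ± 5.01 to 32.3 ± 9.60 CPM (log2 fold change 0.99 ± 0.24 SE, adjusted p = 0.0254). *Mri1* and *Enoph1* act in methionine salvage from methylthioadenosine, the by-product of both aminopropyl transfers. *Mri1* went from 19.8 ± 7.17 to 32.9 ± 4.07 CPM (0.73 ± 0.20 SE, adjusted p = 0.0400) and *Enoph1* from 18.8 ± 1.44 to 26.6 ± 4.60 CPM (0.50 ± 0.12 SE, adjusted p = 0.0254). Each of the 3 lost its call when some single control was left out, and *Mri1* in 8 of the 10 fits without 1 uterus, controls and knockouts together. *Mtap*, which starts this salvage, was at 61.1 and 83.2 CPM (0.45, adjusted p = 0.103).

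None of the 4 hypusination genes passed. Among them *Dohh* shares 47.5% of its exon bases with *Gm48551* on the same strand, so its level is less certain. *Eif5a*, whose protein carries the spermidine-derived residue hypusine, was at 382, 427, 419, 410 and 329 CPM in controls and 731, 522, 446, 452 and 437 CPM in knockout uteri. All 5 were above all controls, with replicate 1 far above the other 4 (0.40 ± 0.15 SE, adjusted p = 0.117).

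Among 17 transport genes *Atp13a4* rose and *Cav1* fell, beside 5.19% higher and 4.51% lower of all tested genes. *Atp13a4*, a P5B ATPase gene of the polyamine transporter family, had 1, 3, 0, 0 and 1 counts in controls and 203, 11, 19, 63 and 273 counts in knockout uteri (adjusted p = 0.00480). With so few control counts no fold change is given. *Cav1*, a caveolin gene linked to polyamine uptake and strongly expressed in endothelium, fell from 416 ± 38.7 to 222 ± 67.3 CPM (-0.91 ± 0.19 SE, adjusted p = 0.0158), beside the fall of all 6 endothelial markers, and the part of that fall was not tested. *Atp13a3*, the most abundant transporter ATPase gene of the list (140 and 159 CPM), did not pass (adjusted p = 0.340).

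Of 11 genes for downstream amine and aldehyde breakdown *Aldh1a1* rose and *Aldh9a1* fell, beside 5.19% higher and 4.51% lower of all tested genes. A negative value was found in 9 of the 11, beside 11894 of the 25146 tested genes. *Aldh1a1* went from 15.5 ± 1.66 to 31.4 ± 12.8 CPM (1.02 ± 0.24 SE, adjusted p = 0.0247) with replicates 1 and 5 highest at 44.2 and 45.7 CPM, and it was 0.54 without them (adjusted p = 0.0433). The call was lost without control replicate 2, 3, 4 or 5 (adjusted p = 0.0601, 0.0672, 0.0521 and 0.0554) and, by a narrow margin, without knockout replicate 1. *Aldh9a1*, which oxidizes aminobutyraldehyde from putrescine, fell from 94.4 ± 5.96 to 79.3 ± 4.79 CPM (-0.25 ± 0.071 SE, adjusted p = 0.0481), a call lost in 9 of the 10 fits without 1 uterus.

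In the MYC network, to which *Odc1* belongs as a classical target, 1 of 10 genes rose and 1 fell, beside 5.19% and 4.51% of all tested genes. *Mycn* was between 1.26 and 1.94 CPM in controls and at 43.8, 8.20, 7.91, 10.6 and 75.8 CPM in knockout uteri (4.16 ± 0.67 SE, adjusted p = 0.00453). *Mycn* was highest in replicate 5 and next in replicate 1, and *Odc1* was highest in replicate 1 and next in replicate 5. A link of *Mycn* to the *Odc1* values was not tested. Without these uteri the log2 fold change of *Mycn* was 2.45 (adjusted p = 0.000101). *Mxi1*, a MYC antagonist gene, fell from 60.0 ± 7.92 to 44.8 ± 5.42 CPM (-0.42 ± 0.11 SE, adjusted p = 0.0387), a call lost in 8 of the 10 fits without 1 uterus. *Myc* was at 144 and 114 CPM (adjusted p = 0.329).

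**Figure D5:**
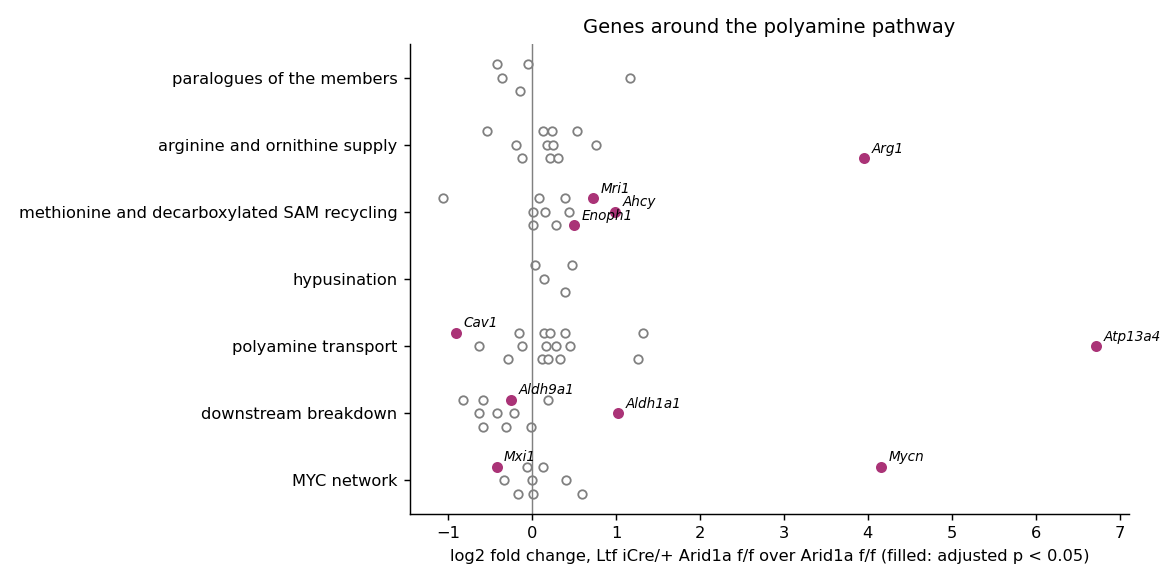
Log2 fold change in edgeR of the 70 tested genes around the polyamine pathway, 1 row of points per list with small vertical offsets for legibility. The 10 filled, named points passed an adjusted p of 0.05, 7 to the right of 0 and 3 to the left; the place of *Atp13a4* rests on the prior count of the fit, as controls had at most 3 counts.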

How the data were processed

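RNA of GD 3.5 uteri, 5 from *Arid1a f/f* controls and 5 from *Ltf iCre/+ Arid1a f/f* (knockout) females, had been sequenced as mRNA libraries. The authors trimmed reads with cutadapt 1.18 and Trim Galore 0.6.4, aligned them to GRCm38 with STAR 2.7.3a and deposited whole-number counts per gene without normalization, for 45706 identifiers. The annotation release and strand setting are not given in the sources used here. Symbols and exon lengths were taken from GENCODE M21 (45143 identifiers found), and promoter windows from RefSeq (GRCm38.p6).

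Genes averaging 1 count or more per uterus were fitted in edgeR 4.0.16 (R 4.3.3; TMM, quasi-likelihood test, genotype only, Benjamini-Hochberg over 25146 genes, threshold 0.05). Libraries held 59296537 to 72702411 counts, and no 2 of the same genotype were duplicates (chi-square of at least 36.1 per gene). DESeq2 1.42.0, its size factors, no filter, filterByExpr, a replicate block and the omission of each uterus, or of knockout replicates 1 and 5, were alternatives, and the procedure was tested on simulated data.

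The genes and lists were chosen with earlier results of these data known. Named were the 10 pathway genes, *Arid1a*, *Ltf*, up to 4 genes per surrounding list with the smallest adjusted p under 0.05 (otherwise the most abundant), and the 3 profiles nearest to the pathway gene of largest called change. *Arg2*, *Oat*, *Mtap*, *Mtr*, *Atp13a3*, *Myc* and *Echs1* were added after their values were seen. Of the marker lists, 2 of 9 natural killer and T cell genes and 1 of 7 neutrophil genes rose, 2 of 6 ovary and oviduct genes fell, and none of the 8 myometrium, 4 B cell, 5 embryo, 4 fat and 5 red blood cell genes tested passed. Without knockout replicates 1 and 5 these counts were 2 higher for natural killer and T cell, 0 for neutrophil, 1 lower for ovary and oviduct and 2 higher for fat genes, and 0 for the others. Over all tested genes 5.19% rose and 4.51% fell, and 5.00% and 4.41% without these 2 uteri.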

Additional observations from a re-analysis of the deposited data

Results flagged for a closer look

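In 10 of 54 groups of 5 uteri 1 uterus lay apart from the other 4 by more than 0.71 of the group's range (Dixon's criterion, which chance meets in about 1 of 20 groups). Replicate 5 of the knockout mice accounted for 6 of them, as the lowest for *Amd1* (50.4 CPM) and *Srm* (43.3 CPM) and the highest for *Sat1* (272 CPM), *Smox* (84.7 CPM), *Arg1* (76.7 CPM) and *Ltf* (2831 CPM). Replicate 1 of the same genotype was the highest for *Enoph1* (34.6 CPM) and *Eif5a* (731 CPM). Control replicate 1 was the highest for *Mri1* (32.6 CPM) and *Ltf* (11.7 CPM).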

How the results depend on the processing

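All genes past the threshold numbered 2438, 4103 in DESeq2 and 1204 to 2381 with 1 uterus left out. Of the polyamine genes 2 passed, 4 in DESeq2, 6 without knockout replicates 1 and 5 (an alternative chosen after seeing the data) and 1 to 6 with 1 uterus left out. Of the surrounding genes 10 passed, and 3 to 11 with 1 uterus left out. *Paox* passed under all 16 alternatives (log2 fold change 1.55 to 1.71) and *Odc1* under 13 (0.40 to 0.70). Signs turned without knockout replicates 1 and 5 for *Azin1* (0.054) and *Aoc1* (-0.73), where fewer samples entered the fit. DESeq2 gave *Arg1* no adjusted p. With the replicate number as a block 1704 genes, 3 polyamine genes and 9 surrounding genes passed. The calls that changed included gains for *Sat1* (adjusted p = 0.0416) and *Oaz2* (0.0413) and losses for *Arg1* (0.107), *Aldh9a1* (0.112) and *Mxi1* (0.111). With this block the log2 fold change of *Aoc1* was 1.24 (adjusted p = 0.648). No pairing by number was seen (correlations of deviations -0.16 to 0.22, and 1 of 5 controls correlated best with its own number). So few correlations cannot exclude pairs, and the paper states that littermates were compared where possible. Low counts limited precision for *Atp13a4*, with at most 3 in a control, and for *Aoc1*, with as few as 28 in a uterus.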
